A study of Arabidopsis thaliana with 36 samples.

Results

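Heat shock proteins are chaperones that bind unfolded or aggregated proteins, and in plants they are made in large amounts when temperature rises. The 10 loci described here were chosen by name: 6 small heat shock proteins (HSP21, HSP22, HSP17.4, HSP17.6II, HSP17.6A and HSP18.2), HSP70-4, HSP90.1, HSP101 and the transcription factor HSFA2. They are 10 of 27562 annotated protein-coding Arabidopsis loci and 10 of the 11536 loci with a called transcript in at least 1 expression comparison. The rule used names, not measured values, but earlier results of these data were known when the loci were chosen.

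The members fill distinct places in the chaperone network. HSFA2 is a heat shock factor, itself induced by heat, that binds heat shock elements in the promoters of chaperone genes and prolongs their expression. HSP101 is a ring-shaped ATPase that pulls proteins out of aggregates and is needed for acquired thermotolerance, while HSP70-4 and HSP90.1 are ATP-dependent chaperones of the cytosol. Small heat shock proteins hold unfolding proteins in soluble complexes without using ATP. HSP21 does so in the chloroplast, HSP22 in the endoplasmic reticulum, HSP17.4 and HSP18.2 in the cytosol as class I proteins, and HSP17.6II and HSP17.6A in the cytosol as class II proteins.

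The study examined SWAP1, SFPS and RRC1, splicing factors that act in red light signalling, in 4-day-old whole Arabidopsis seedlings grown in darkness on agar without sucrose. Its 36 libraries of rRNA-depleted total RNA form 12 groups of 3: the triple mutant swap1-1sfps-2rrc1-3, the double mutants swap1-1sfps-2, swap1-1rrc1-3 and sfps-2rrc1-3, the single mutant swap1-1, and wild type Col-0 (WT). Each genotype either received 3 h of red light at 7 µmol m-2 s-1 or stayed in the dark, and all seeds had been chilled and given white light to germinate. The labels name no heat treatment. Expression was compared for swap1-1 (written swap1 here) and WT, and splicing also for the triple mutant against WT and against each double mutant. Each mutant combination is represented by 1 allele of each gene.

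The files hold the authors' comparisons of whole groups and list called features alone, so no value of a single library, no library total and no spread between libraries can be shown, and the depth is unknown. A transcript was called at an adjusted p below 0.05 and an absolute log2 fold change over 0.585. The labels do not say whether the 3 libraries of a group came from separate cultures, so the authors' p-values measure the spread between these libraries. Between 28332 and 29347 transcripts at least were tested per expression comparison, as back-calculated from adjusted p, rank and p. In the SWAP1 gene (AT4G31200), exon bin 3 was lower in swap1 than in WT by -1.47 log2 units in red light and -1.08 in the dark, per the authors' deposited tables. Other bins of the gene went both ways in the authors' deposited tables: exon bin 2 was lower in both light conditions, while exon bin 6 was higher by 1.70 in red light and 0.86 in the dark, exon bin 5 by 0.92 and 0.68, and exon bin 7 by 1.13 in red light. One SWAP1 transcript, AT4G31200.3, was listed higher in red-lit swap1 than in WT, per the authors' deposited table (log2 fold change 0.92, SE 0.28).

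The bases before the transcript start are shown first for 5 members, because heat shock factors bind there. These 5 were taken from the members whose window overlaps no other locus, and they moved in different ways. A heat shock element is built of alternating GAA and TTC units, and a pair of facing units (GAANNTTC or TTCNNGAA) was searched on both strands in the 250 bases before each annotated transcript start, as were 3 alternating units (GAANNTTCNNGAA or TTCNNGAANNTTC). Each motif reads as itself or as its partner on the other strand, and every match of 3 units holds overlapping matches of 2 units. The sequences are from RefSeq's TAIR10.1 assembly, 5′ to 3′ on the gene's strand, with element matches in capitals.
HSP17.4 (chr3:16984868-16985091, minus strand): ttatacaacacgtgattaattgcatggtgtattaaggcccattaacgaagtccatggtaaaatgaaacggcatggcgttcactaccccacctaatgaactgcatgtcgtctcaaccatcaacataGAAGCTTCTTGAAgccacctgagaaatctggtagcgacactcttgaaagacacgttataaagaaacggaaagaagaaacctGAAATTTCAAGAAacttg
HSP21 (chr4:13819972-13820221, minus strand): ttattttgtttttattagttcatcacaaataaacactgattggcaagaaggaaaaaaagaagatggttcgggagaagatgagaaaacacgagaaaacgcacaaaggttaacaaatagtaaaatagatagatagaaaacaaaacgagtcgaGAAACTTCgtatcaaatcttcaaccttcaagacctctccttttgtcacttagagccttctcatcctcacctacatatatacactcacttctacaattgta
HSP17.6II (chr5:3883112-3883361, minus strand): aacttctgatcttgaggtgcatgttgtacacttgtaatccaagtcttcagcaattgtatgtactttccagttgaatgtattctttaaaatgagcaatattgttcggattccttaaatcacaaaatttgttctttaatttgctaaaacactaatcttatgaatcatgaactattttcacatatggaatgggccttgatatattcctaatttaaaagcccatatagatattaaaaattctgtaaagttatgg
HSP70-4 (chr3:3993887-3994136, minus strand): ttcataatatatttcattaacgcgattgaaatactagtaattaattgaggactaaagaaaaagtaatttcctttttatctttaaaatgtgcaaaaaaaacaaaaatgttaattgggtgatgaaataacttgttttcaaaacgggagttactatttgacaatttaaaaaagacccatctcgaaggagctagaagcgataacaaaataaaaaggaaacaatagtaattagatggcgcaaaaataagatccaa
HSP22 (chr4:6370088-6370337, plus strand): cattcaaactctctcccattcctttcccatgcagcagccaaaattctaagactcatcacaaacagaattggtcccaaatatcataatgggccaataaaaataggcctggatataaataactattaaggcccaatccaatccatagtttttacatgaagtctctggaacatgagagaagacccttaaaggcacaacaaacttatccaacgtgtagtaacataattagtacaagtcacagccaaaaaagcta

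The HSP17.4 stretch ends 27 bases before the transcript start, where the annotated gene begins, and the other stretches end at the base before the transcript start. HSP17.4 held 2 elements of 3 units, the nearer one at positions -44 to -32 counted from the transcript start. HSFA2 held 1 element of 3 units, GAAGTTTCTGGAA, at -88 to -76, and a further pair of units at -33 to -26. HSP21 had a single pair at -100 to -93, HSP101 had GAAAATTC at -31 to -24, and HSP17.6A had TTCTCGAA at -22 to -15. The remaining 5 members, HSP22, HSP17.6II, HSP18.2, HSP70-4 and HSP90.1, had no match in this window. The windows of HSFA2, HSP17.6A, HSP18.2 and HSP90.1 overlap a neighbouring locus, so they do not lie wholly between genes. Windows of the background were not filtered for such overlap either. A pair of units thus occurred in 5 of the 10 members and in 16.3% of 27443 promoters of the same length, and 3 units occurred in 2 members and in 0.401% of promoters. The window depends on the annotated start: the annotated leader before the start codon ran from 0 bases in HSP90.1 to 428 in HSFA2, and a match is a description of letters, not of binding.

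**Figure D1:**
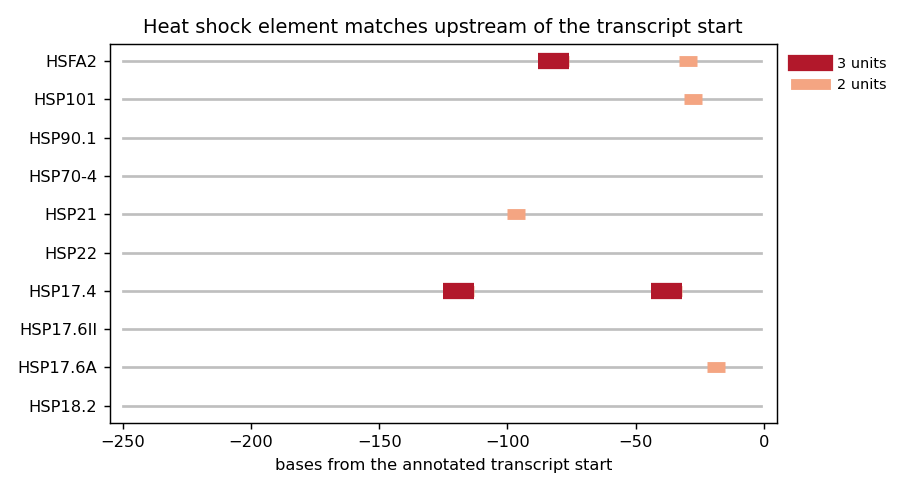
Heat shock element matches in the 250 bases before the annotated transcript start of each member; the x axis is the distance from the start in bases, dark bars are matches of 3 units and light bars pairs of units. HSP17.4 and HSFA2 carry the elements of 3 units, and 5 members have no match.

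After 3 h of red light, most of the 10 members had more RNA than in the dark in both genotypes. In swap1, 8 of the 10 members were higher in red light than in the dark, 1 was lower and 1 was not called in the authors' deposited table, where at most 15.1% of transcripts were called higher and 11.2% lower. In WT the counts were the same, 8 higher, 1 lower and 1 not called in the authors' deposited table, against at most 13.3% of transcripts called higher and 8.71% lower. The member that fell was HSP22 in both genotypes, and the member without a call was HSP17.4 in both. Whole seedlings were used, so a change in the RNA of each cell and a change in the mix of cells cannot be told apart. Levels below are group means in normalised signal (DESeq2's mean of normalised counts), solved from the authors' base means and fold changes and set on 1 scale.

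HSFA2, the heat-induced activator of the set, was among the least abundant. Its called transcript AT2G26150.2 (AT2G26150, gene at chr2:11135624-11137792, plus strand, 1 of 4 annotated mRNAs) had a mean level of 16.8 in swap1 in red light and 2.26 in swap1 in the dark. In WT its mean level was 23.4 in red light and 2.45 in the dark. The log2 fold change of red light over dark was 2.89 (SE 0.88, adjusted p = 0.00278) in swap1 and 3.26 (SE 0.79, adjusted p = 1.46e-04) in WT in the authors' deposited DESeq2 tables. The other annotated HSFA2 mRNAs were not called, and how the authors divided reads among isoforms was not given in the sources used here.

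The large ATP-dependent chaperones were abundant in every group and rose in red light with small standard errors. HSP70-4 (AT3G12580, chr3:3991117-3993886, minus strand) had the highest level of the set, 27142 in swap1 in red light and 6240 in swap1 in the dark. In WT its level was 36666 in red light and 5952 in the dark. Its log2 fold change was 2.12 (SE 0.09) in swap1 and 2.62 (SE 0.08) in WT in the authors' deposited tables, with adjusted p of 6.72e-121 and 1.94e-244. HSP70-4 was thus over 4-fold higher in red light than in the dark in each genotype, at 4.34-fold in swap1 and 6.16-fold in WT.

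HSP90.1 (AT5G52640, chr5:21352557-21355147, plus strand), the heat-inducible HSP90 of the cytosol, had levels of 5795 in red light and 2543 in the dark in swap1, and 7479 in red light and 2919 in the dark in WT. Its log2 fold change was 1.19 (SE 0.09) in swap1 and 1.36 (SE 0.08) in WT in the authors' deposited tables. HSP101 (AT1G74310, chr1:27936508-27940369, minus strand), the disaggregase, moved least among the members that rose in either genotype. Its levels were 3753 in red light and 2488 in the dark in swap1, and 4801 in red light and 2949 in the dark in WT. The log2 fold change of HSP101 was 0.59 (SE 0.09) in swap1 and 0.70 (SE 0.07) in WT in the authors' deposited tables, close to the authors' cut of 0.585. HSP101 overlaps AT1G74300 on the opposite strand by 101 bases, and whether reads were counted by strand was not given in the sources used here.

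The organelle small heat shock proteins moved in opposite directions in red light. HSP21 of the chloroplast (AT4G27670, chr4:13818825-13819971, minus strand) had a mean level of 76.9 in swap1 in red light and 6.0 in swap1 in the dark. In WT its level was 40.5 in red light and 18.2 in the dark, so that the genotype with the higher level differed between light conditions. Its log2 fold change was 3.68 (SE 0.45, adjusted p = 3.67e-15) in swap1 and 1.15 (SE 0.42, adjusted p = 0.0170) in WT in the authors' deposited DESeq2 tables. HSP22 of the endoplasmic reticulum (AT4G10250, chr4:6370338-6371372, plus strand) was the only member that fell. Its levels were 227 in red light and 800 in the dark in swap1, and 207 in red light and 954 in the dark in WT. The log2 fold change of HSP22 was -1.82 (SE 0.15) in swap1 and -2.21 (SE 0.15) in WT in the authors' deposited tables, a level 3.53-fold and 4.61-fold lower in red light.

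The cytosolic class II proteins HSP17.6II (AT5G12020, chr5:3882231-3883111) and HSP17.6A (AT5G12030, chr5:3883957-3884838) are neighbours on the minus strand of chromosome 5. HSP17.6II had levels of 301 in red light and 47.2 in the dark in swap1, and 253 in red light and 124 in the dark in WT. Its log2 fold change was 2.67 (SE 0.26, adjusted p = 1.65e-23) in swap1 and 1.03 (SE 0.18, adjusted p = 6.96e-08) in WT in the authors' deposited DESeq2 tables. The red light levels lay close together and the dark levels apart. HSP17.6A had levels of 269 in red light and 89.3 in the dark in swap1, and 457 in red light and 222 in the dark in WT. The log2 fold change of HSP17.6A was 1.59 (SE 0.18) in swap1 and 1.04 (SE 0.20) in WT in the authors' deposited tables. The longest exact stretch shared by the transcripts of this pair was 33 bases, under the read length of 150 bases, and no member shared a longer one with any other listed locus.

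Of the class I proteins, HSP18.2 (AT5G59720, chr5:24062323-24063300, plus strand) had levels of 241 in red light and 117 in the dark in swap1, and 179 in red light and 55.9 in the dark in WT. Its log2 fold change was 1.04 (SE 0.18) in swap1 and 1.68 (SE 0.24) in WT in the authors' deposited tables. HSP18.2 therefore had the opposite genotype order to HSP17.6A, with higher mean levels in swap1 than in WT in both light conditions. HSP17.4 (AT3G46230, chr3:16984118-16984867, minus strand) was called in neither light table. It overlaps AT3G07365, annotated as its natural antisense transcript, by 453 bases and AT3G46220 by 60 bases, both on the opposite strand. Without a statement on strand, reads of HSP17.4 and its antisense partner cannot be told apart.

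**Figure D2:**
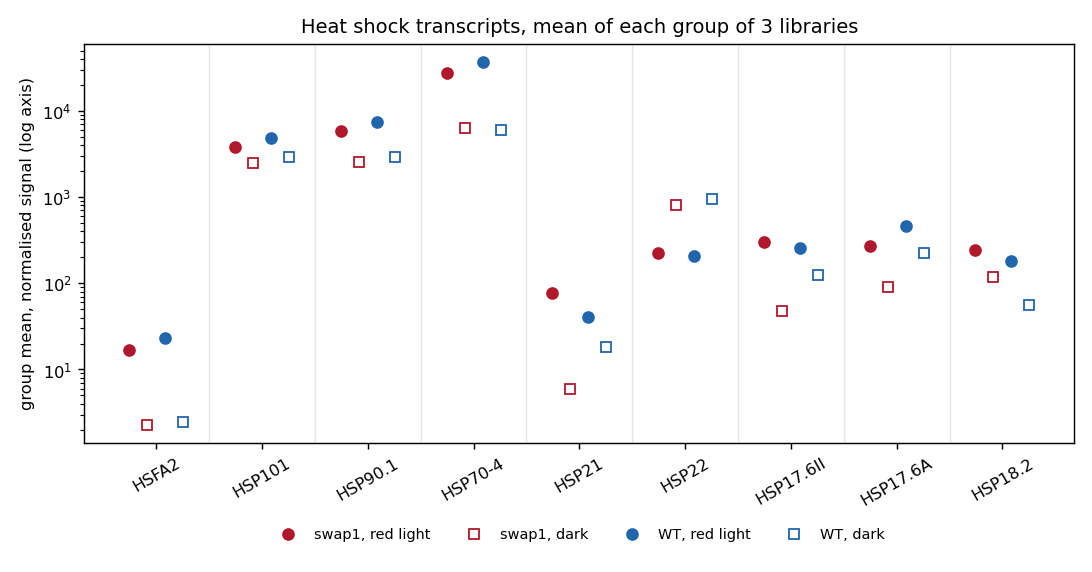
Mean level of 9 members in each of 4 groups of 3 libraries, in normalised signal on a log axis; filled symbols are red light, open symbols dark, red symbols swap1 and blue symbols WT. HSP70-4 lies highest and HSFA2 lowest in red light, HSP22 alone is lower in red light, and HSP17.4 is not drawn because its level could be set in red light alone.

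Divided by transcript length, the red light levels kept a wide range. HSP70-4 stood at 10771 normalised signal per kb in swap1 and 14550 in WT, followed by HSP90.1 at 2755 in swap1 and 3556 in WT and HSP101 at 1143 in swap1 and 1462 in WT. The small heat shock proteins other than HSP21 and HSP17.4, whose level was not set on the common scale, lay between 219 and 342 per kb in swap1 and between 183 and 518 per kb in WT in red light. HSP21 stood at 78.2 per kb in swap1 and 41.2 in WT, and HSFA2 at 8.96 in swap1 and 12.5 in WT. In the dark HSP22 was the highest of the 5 small heat shock proteins with a level, at 773 per kb in swap1 and 922 in WT. No spread between libraries stands behind these levels, so it cannot be said which neighbours in the order differ.

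**Figure D3:**
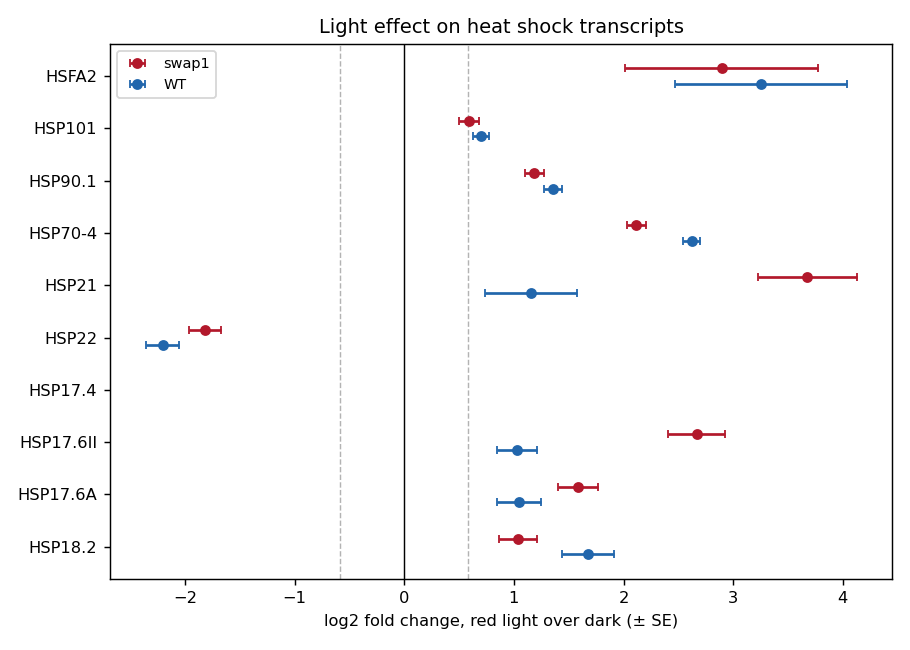
Light effect on each member, as the authors' log2 fold change of red light over dark with its standard error (x axis), in swap1 (red) and WT (blue); dashed lines mark the authors' fold threshold of 0.585. The swap1 points lie well to the right of the WT points for HSP21 and HSP17.6II, and HSP22 is the one member left of zero.

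The light effect was then compared between the genotypes. HSP21 and HSP17.6II, small heat shock proteins of the chloroplast and the cytosol, rose more in swap1 than in WT, and HSP70-4 rose less. Subtracting the WT log2 fold change left 2.52 (SE 0.62) for HSP21, with a 95% interval of 1.31 to 3.73 and a Benjamini-Hochberg adjusted p of 4.19e-04. HSP17.6II had a difference of 1.64 (SE 0.32, interval 1.02 to 2.26, adjusted p = 4.36e-06). HSP70-4 had a difference of -0.51 (SE 0.12, interval -0.74 to -0.27, adjusted p = 2.33e-04). The test was a two-sided z test on the authors' fold changes and standard errors, adjusted over the 4679 transcripts called in both light tables, which share no library. Of those transcripts 26.4% differed, so that 3 of 9 members is near the background, where 14.5% differed towards swap1 and 11.9% towards WT.

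The remaining 6 members called in both tables did not pass. HSP18.2 had a difference of -0.64 (interval -1.22 to -0.05, adjusted p = 0.101 over all transcripts) and HSP17.6A one of 0.54 (interval 0.01 to 1.08, adjusted p = 0.133). HSP22 had a difference of 0.39 (interval -0.03 to 0.80), HSP90.1 of -0.17 (interval -0.41 to 0.07) and HSP101 of -0.11 (interval -0.34 to 0.12). For HSFA2 the interval reached from -2.67 to 1.95, so a difference of several fold in either direction was not detectable. The narrow intervals belong to the abundant chaperones and the wide one to the scarce transcription factor.

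**Figure D4:**
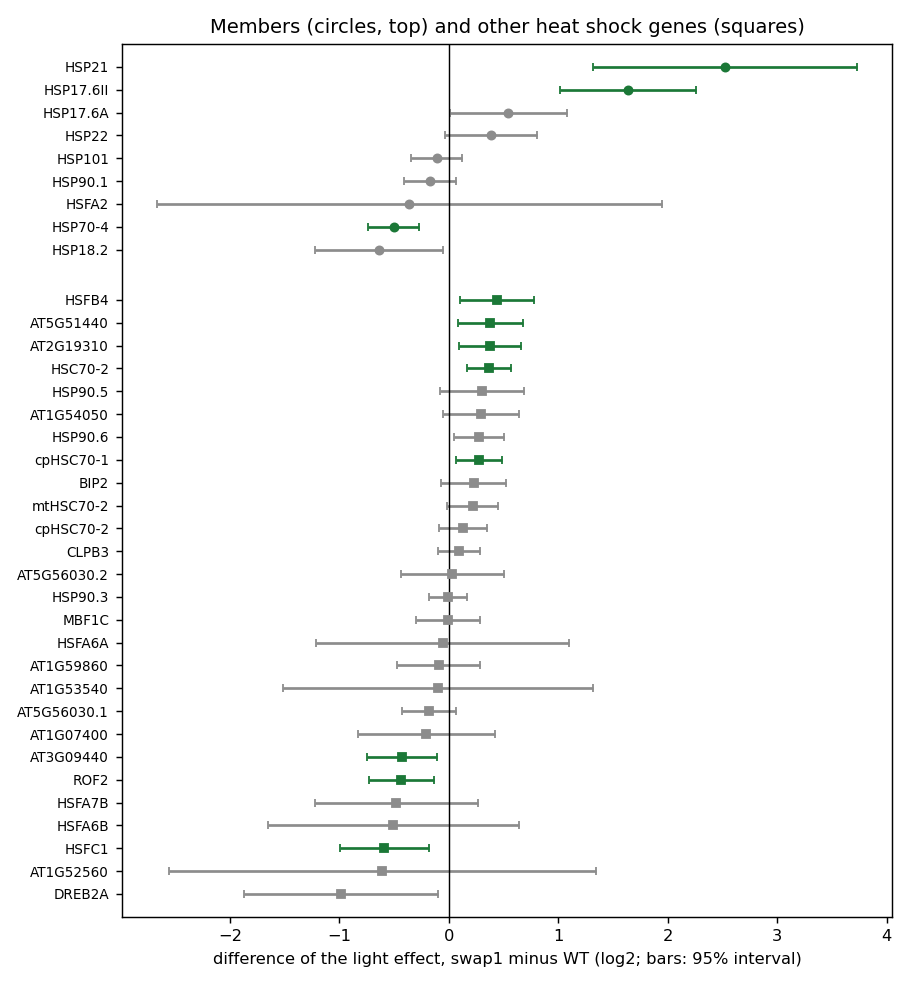
Difference of the light effect, swap1 minus WT in log2 units (x axis), for 9 members (circles) and 27 transcripts of other heat shock genes (squares), with 95% intervals; green marks an adjusted p below 0.05. HSP21 and HSP17.6II lie furthest to the right, and the intervals of the other heat shock genes that pass stay between -1 and 1.

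Between the genotypes, every member that was called was a small heat shock protein. In red light, 2 members were lower and 1 was higher in swap1 than in WT, per the authors' deposited table, beside at most 9.71% of transcripts called lower and 7.79% called higher. HSP17.4 had a log2 fold change of -1.03 (SE 0.29, adjusted p = 0.00185 by the authors' DESeq2) at group means of 57.7 in swap1 and 118 in WT on the scale of that table, its only call in the 4 authors' deposited tables. HSP17.6A was also lower, at -0.77 (SE 0.14, adjusted p = 5.65e-07) in the authors' deposited DESeq2 table. HSP21 was higher, at 0.93 (SE 0.31, adjusted p = 0.0103) in the authors' deposited DESeq2 table.

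In the dark, 3 members were lower in swap1 than in WT and 1 was higher, per the authors' deposited table, beside at most 7.40% of transcripts called lower and 6.12% called higher. HSP21 had a log2 fold change of -1.60 (SE 0.63, adjusted p = 0.0389 by the authors' DESeq2), HSP17.6II of -1.39 (SE 0.31, adjusted p = 5.22e-05) and HSP17.6A of -1.31 (SE 0.24, adjusted p = 6.40e-07) in the authors' deposited table. HSP18.2 was higher, at 1.07 (SE 0.25, adjusted p = 1.20e-04) in the authors' deposited DESeq2 table. The 3 members that fell come from the chloroplast and the class II group, and the one that rose is a class I protein. HSP21 was thus higher in swap1 in red light and lower in the dark, and HSP17.6A was the one member called in the same direction in both light conditions.

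For members without a call, the swap1 effect was taken from the group levels and has no standard error or test. The large chaperones and HSFA2 had values below the fold threshold of 0.585 in both light conditions. In red light HSP70-4 stood at -0.43, HSP90.1 at -0.37, HSP101 at -0.36 and HSFA2 at -0.48 log2 units, swap1 over WT. In the dark HSP70-4 stood at 0.07, HSP90.1 at -0.20, HSP101 at -0.25 and HSFA2 at -0.12. HSP18.2 in red light had 0.43, HSP17.6II in red light 0.25, and HSP22 had 0.13 in red light and -0.25 in the dark. Where a call existed to compare with, levels set this way missed the authors' swap1 effect by -0.0042 to 0.0044 log2 units in red light and -0.0039 to 0.0043 in the dark, 5th to 95th percentile.

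**Figure D5:**
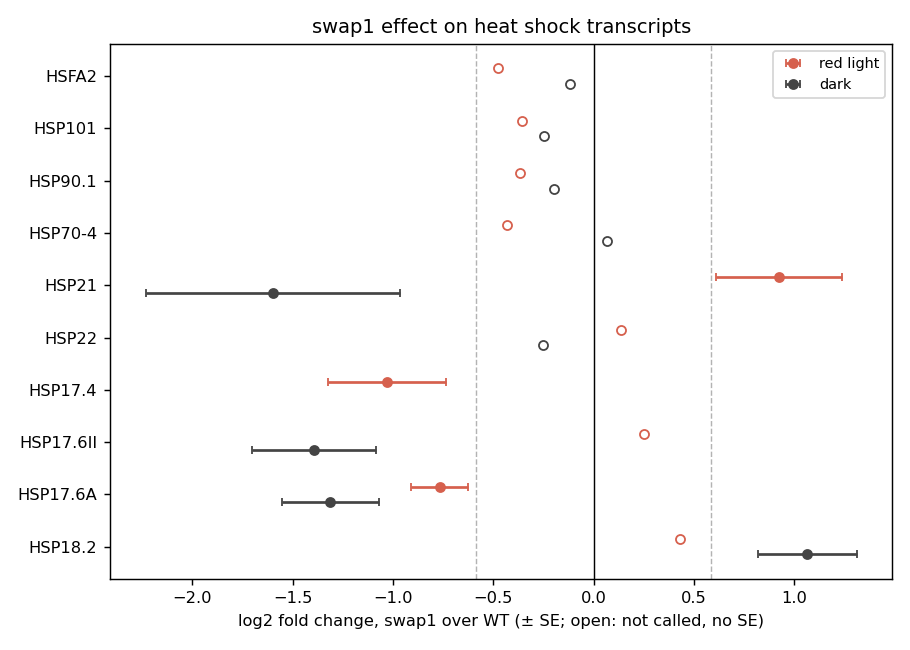
The swap1 effect on each member, as log2 fold change of swap1 over WT (x axis), in red light and in the dark; filled points with standard errors are the authors' calls and open points are values from the group levels, with no error. HSP21 lies right of zero in red light and left of zero in the dark, and the points of HSFA2, HSP101, HSP90.1 and HSP70-4 stay within the dashed lines at 0.585.

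Seed embryo transcripts were counted as well, because some small heat shock proteins are also made in maturing seeds. Of 12 embryo markers (seed storage proteins, oleosins and EM proteins), 6 were lower and 0 higher in red-lit swap1 than in WT, at log2 fold changes of -3.69 to -1.31 per the authors' deposited table. In the dark 4 were lower and 0 higher, at -2.67 to -1.66 in the authors' deposited table. Of all transcripts, at most 9.71% were called lower and 7.79% higher in red light, and 7.40% and 6.12% in the dark. The members went both ways, with 2 lower and 1 higher in red-lit swap1 and 3 lower and 1 higher in the dark. Between light conditions, 2 of 12 embryo markers were higher in red light in swap1 and 3 of 12 in WT in the authors' deposited tables, and none was lower. At most 15.1% of all transcripts were called higher there in swap1 and 13.3% in WT. The embryo marker EM6 had a level of 30.6 in red light and 6.60 in the dark in swap1, and 221 in red light and 21.2 in the dark in WT. Of 4 green tissue markers, 4 rose with light in swap1 and 3 in WT in the authors' deposited tables. The direction of the light comparisons was read from these same markers, so their rise is not a separate result. CAB1 was lower in swap1 in the dark at -1.33 in the authors' deposited table. Of 5 root hair markers, 2 were higher in swap1 in red light and none was called in the dark, per the authors' deposited tables. Their part in the results on heat shock proteins was not tested.

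Other heat shock and chaperone genes were counted from a list of 66 loci, also chosen with earlier results of these data known. In swap1, 32 of them were higher in red light than in the dark and 1 was lower in the authors' deposited table. In WT, 27 were higher and 2 lower in the authors' deposited table. The share of loci higher was thus 48.5% in swap1 and 40.9% in WT, beside 15.1% and 13.3% of all transcripts. Expression shares of this list count loci and the background counts transcripts, here and below, so the 2 are not fully alike. By family, the loci higher in red light were 9 of 12 small heat shock proteins in swap1 and 7 in WT, 6 of 11 HSP70 proteins in each genotype and 5 of 6 HSP90 proteins in swap1 and 4 in WT. Of 20 heat shock factors, 5 rose in swap1 and 4 in WT, so that most factors were not called in either genotype. Among 15 co-chaperones and other heat-induced genes, 5 rose in each genotype.

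Heat shock factors other than HSFA2 moved in both directions with light. HSFA6A had a log2 fold change of 5.44 (SE 0.26) in swap1 and 5.49 (SE 0.53) in WT in the authors' deposited tables, and HSFA6B had 2.46 (SE 0.12) in swap1 and 2.97 (SE 0.57) in WT. Both are class A factors linked in Arabidopsis to abscisic acid and drought responses. HSFA7B went the other way, at -2.42 (SE 0.27) in swap1 and -1.94 (SE 0.27) in WT in the authors' deposited tables. HSFA3 was called in WT, at -0.94 (SE 0.15) in the authors' deposited table, and not in swap1, and this difference could not be tested. Of the small heat shock proteins, AT1G54050 rose by 2.41 (SE 0.13) in swap1 and 2.12 (SE 0.13) in WT in the authors' deposited tables. AT5G51440 rose by 2.08 (SE 0.11) in swap1 and 1.71 (SE 0.11) in WT, and AT1G52560 by 2.02 (SE 0.72) in swap1 and 2.63 (SE 0.69) in WT, in the authors' deposited tables. DREB2A, a drought and heat factor upstream of HSFA3, had transcripts called in opposite directions in WT, AT5G05410.1 at 2.07 and AT5G05410.2 at -0.96 in the authors' deposited table, and was singled out after its values were seen.

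In the genotype comparisons fewer of the 66 genes were called. In red light, 5 were higher and 8 lower in swap1 than in WT in the authors' deposited table. These are 7.58% and 12.1% of the list, near the 7.79% and 9.71% of all transcripts. The small heat shock proteins were divided there, with 4 lower and 3 higher of 12, and no HSP70, HSP90 or HSP100 protein was called in either light condition.

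Among those called in red light, AT1G53540 was at -1.16 (SE 0.40) and AT1G07400 at -0.76 (SE 0.19), while AT4G21870 was at 0.65 (SE 0.08) and AT5G51440 at 0.64 (SE 0.08) in the authors' deposited table. HSFA3 was higher in swap1 at 0.92 (SE 0.11) and HSFA4C at 0.86 (SE 0.32) in the authors' deposited table. HSFA9, the heat shock factor of maturing seeds, was at -2.0 (SE 0.66) with a base mean of 14.1 in the authors' deposited table, and ROF2, an FK506-binding co-chaperone, at -0.84 (SE 0.10).

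In the dark, 2 were higher and 3 lower in swap1 than in WT in the authors' deposited table, and the 3 lower ones were all small heat shock proteins. These counts are 3.03% and 4.55% of the list, beside the 6.12% and 7.40% of all transcripts. With so few loci no difference from those shares is read. The 3 lower ones were AT2G29500 at -0.98 (SE 0.14), AT1G54050 at -0.63 (SE 0.18) and AT1G59860 at -0.63 (SE 0.16) in the authors' deposited table. The 2 higher ones were HSFA6B at 0.93 (SE 0.17) and the cytosolic ascorbate peroxidase APX2 at 3.44 (SE 0.79), the second at a base mean of 14 in the authors' deposited table. The light effect differed between genotypes in 8 of 27 tested transcripts of this list, 5 larger and 3 smaller in swap1, near the 26.4% of all transcripts.

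Gene ontology terms deposited by the authors placed few of the members. The term response to heat held 32 genes of the swap1 light table and 32 of the WT light table, with adjusted p of 0.948 and 0.800 in the authors' deposited tables, and each set included HSP21, HSP17.6II and HSFA2. The term response to hydrogen peroxide held HSP17.6II and HSFA2 and 20 genes in swap1 (relative enrichment 1.47, adjusted p = 0.437) and 22 in WT (1.88, adjusted p = 0.0388) in the authors' deposited tables. Response to high light intensity, a term past the threshold in both genotypes in the authors' deposited tables, contained none of the 10 members. Response to light stimulus also passed in both genotypes and held HSP21 alone of the members. Its adjusted p was 5.75e-12 in swap1 and 2.15e-14 in WT in the authors' deposited tables.

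Splicing was called by the authors from exon and intron bins and from junctions with ASpli. None of the 10 member loci held a called region in any of the 12 splicing comparisons in the authors' deposited tables. Of these, 5 members, HSP22, HSP17.4, HSP17.6II, HSP17.6A and HSP18.2, have no annotated intron. The other 5 have introns, 1 each in HSP21 and HSP70-4, 3 in HSP90.1, 5 in HSP101 and 4 in HSFA2. Among the 22245 loci with an annotated intron, the share with a called region was 27.1% for swap1 against WT in red light and 17.4% in the dark. Setting the triple mutant against WT gave shares of 29.5% under red light and 23% in darkness. It was 9.26% between light conditions in swap1 and 6.44% in WT, while the triple mutant against sfps-2rrc1-3 gave 5.48% in red light and 6.64% in the dark. Against swap1-1sfps-2 it gave 0.850% in red light and 0.692% in the dark, and against swap1-1rrc1-3 0.836% and 1.10%. With 5 loci that have introns, a count of 0 says little about how the members compare with these shares, and HSFA2 had a mean level of at most 23.4. The nearest call was intron 3 of AT3G46220, higher in swap1 than in dark-kept WT (log2 fold change 0.70, FDR 0.0229 in the authors' deposited table), where the file marks HSP17.4 as an overlapping locus although the intron itself (chr3:16980208-16980369) lies outside the HSP17.4 gene.

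Some of the other chaperone genes held called regions. Of 59 listed loci with introns, 16 held a called region for swap1 against WT in red light and 9 in the dark, and 13 and 17 in the red-lit and dark-kept triple mutants against WT. The swap1 counts are 27.1% in red light and 15.3% in the dark, near the 27.1% and 17.4% of all loci with introns, and the triple mutant counts are 22% and 28.8%, beside 29.5% and 23%. Nothing particular to the chaperone list is read from them. Between light conditions 6 were called in swap1 and 2 in WT in the authors' deposited tables. These are 10.2% and 3.39% of the list, beside 9.26% and 6.44% of all loci with introns. The triple mutant against each double mutant gave 1 to 5 (1.69% to 8.47%), beside 0.692% to 6.64%. Against swap1-1rrc1-3 in red light the count was 4 (6.78% beside 0.836%), and this gap was not tested. The lowest FDR of the list in swap1 against WT was in HSFA4C, at chr5:18541096-18541503. The change in junction participation there was 0.43 in red light (FDR 1.02e-27) and 0.51 in the dark (FDR 2.2e-44). In red light the intron bins called in swap1 against WT included intron 1 of HSFA4C at 0.79 (FDR 2.56e-11) in the authors' deposited table. Intron 1 of HSFA1B, a master activator of the heat response, was at 0.97 (FDR 9.36e-11) in the same comparison. Intron 1 of HSBP, a protein that binds heat shock factors, was at 0.75 (FDR 1.11e-13) and intron 4 of J2, a DnaJ co-chaperone, at 0.98 (FDR 2.17e-12) in the authors' deposited table. The mitochondrial CLPB4, a relative of HSP101, had intron 3 at 1.25 in both light conditions (FDR 3.27e-05 in red light and 8.13e-04 in the dark) in the authors' deposited tables.

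Intron bins of some listed chaperone genes were also called between light conditions. In the chloroplast cpHSC70-2, intron 5 was at -1.14 (FDR 2.04e-09) in swap1 and -0.75 (FDR 0.00223) in WT. Its intron 2 was at -0.95 (FDR 5.76e-08) in swap1 and -0.93 (FDR 1.33e-06) in WT, in the authors' deposited tables. Other introns of this gene were called lower in both genotypes too. HSBP intron 1 was at 0.81 and BIP2 intron 6 at 0.84 in swap1 in red light over dark in the authors' deposited table. In the triple mutant the junction at chr2:1285270-1285382 in the chloroplast HSP90.5 changed its inclusion by 0.746 against WT, sfps-2rrc1-3 and swap1-1rrc1-3 in red light, and by 0.306 against swap1-1sfps-2, in the authors' deposited tables.

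The patterns most like those of single members were found among all transcripts called in the same tables, by Euclidean distance over the log2 fold changes. HSP17.6II, called in 3 tables, was nearest to AT5G04120 (distance 0.12), the light signalling factor HYH (0.16) and AT2G43620 (0.32). HYH itself had log2 fold changes of 2.71 for light in swap1, 1.07 for light in WT and -1.54 for swap1 in the dark, per the authors' deposited tables. HSP17.6A, called in 4 tables, was nearest to AT4G31760 (0.25), AT1G59740 (0.28) and AT3G19800 (0.33). HSP18.2 was nearest to AT2G42150 (0.14), AT1G03457 (0.18) and AT4G34550 (0.19) over 3 tables. HSP21 had no close neighbour among 534 transcripts called in all 4 tables: the nearest was TT4, chalcone synthase, at 1.84, followed by GPAT5 at 1.88 and CXE13 at 2.09. All 3 were at -0.72 to -0.60 for swap1 over WT in red light, per the authors' deposited table, where HSP21 was at 0.93.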

How the data were processed

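Whole seedlings were measured by rRNA-depleted RNA-seq on an Illumina NovaSeq, 3 libraries per group. Per the submitters' processing notes and the series' design text, reads were checked with FastQC, aligned with STAR to TAIR10, counted with HTSeq and analysed with DESeq2 and ASpli 2.0. The deposited tables list called features only. Per the file headers, the expression tables hold base mean (a normalised signal), log2 fold change with its SE, Wald score, p-value and adjusted p-value, at log2 fold changes beyond 0.585 and adjusted p below 0.05. Per the file headers, splicing bins were set to a 1.5-fold change and an FDR of 0.05 (0.03 for the triple mutant). Junctions were set to a change of 0.3 in inclusion or participation (a score the authors computed) at an FDR of 0.01. Some listed bins lay below the fold setting, such as intron 1 of DREB2A at 0.52 log2 units in red-lit swap1 against WT. The authors' gene ontology tables give the count of genes found, an enrichment ratio relative to background and its adjusted p-value. How strand, isoforms and shared reads were treated is not given in the sources used here, and no library total is known.

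The direction of each table was settled from the values. The green tissue markers, taken as light-induced genes, gave red light over dark. Over 535 transcripts called in all 4 expression tables, the loop of the 4 comparisons closed to a median of 0.00302 log2 units with the genotype tables turned to swap1 over WT, and to 0.628 for the next best choice of signs. This order makes the one called SWAP1 transcript higher in swap1, and the sign of SWAP1 was therefore not used. Bin fold changes were used as deposited, second group over first. Over 49 bins the loop closed to a median of 0.001, which it would also do with all 4 comparisons reversed. The sign therefore rests on the isoform-specific exon bins, of which 87.7% to 92.5% moved with their isoform. Group means were solved from base mean and fold change, and the tables were put on 1 scale by a median offset over 1010 (dark) and 1125 (red light) transcripts. A transcript stood for its locus where it had the highest base mean. The difference of the light effect was a z test with Benjamini-Hochberg adjustment over 4679 transcripts. How the authors' selection of called transcripts affects this test was not tested. Transcripts not called in both light tables could not be tested. Introns, gene positions and promoters are from RefSeq's TAIR10.1, whose annotation held 99.4% of 34835 bins inside their locus and 95.6% of 30238 intron bins as annotated introns.

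The members and the lists (66 pathway loci and the embryo, root hair and green tissue markers) were chosen with earlier results of these data known. All 10 members are named, and of the pathway list up to 4 loci with the highest and 4 with the lowest log2 fold change per comparison, up to 8 loci per splicing table, and the 3 nearest transcripts per member called in at least 3 tables; other genes are named where said. Alternatives changed the fold and p thresholds, the transcript that stands for a locus and the route to the difference. Python 3.11.15, pandas 2.3.3, numpy 2.4.6 and scipy 1.17.1 were used.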

Additional observations from a re-analysis of the deposited data

Results flagged for a closer look

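The light effect (log2, red light over dark) differed between swap1 and WT, by the z test of the difference, for 3 members: HSP21 at 2.52 (adjusted p = 4.19e-04), HSP17.6II at 1.64 (adjusted p = 4.36e-06) and HSP70-4 at -0.51 (adjusted p = 2.33e-04), swap1 minus WT. HSP21 rested on low levels, 6.0 in swap1 in the dark and 18.2 in WT in the dark. Among the other heat shock genes, which are named here because they passed this test, the light effect was larger in swap1 for HSFB4 by 0.44, AT5G51440 by 0.38, AT2G19310 by 0.37, HSC70-2 by 0.37 and cpHSC70-1 by 0.27. It was smaller in swap1 for HSFC1 (-0.59), ROF2 (-0.43) and AT3G09440 (-0.43). The test was passed by 3 of 9 members, by 8 of 27 transcripts of the other heat shock genes and by 26.4% of all 4679 transcripts tested.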

How the results depend on the processing

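The counts of members that rose or fell with light, and of members lower or higher in swap1 in the dark, stayed within 1.5 times their value when the log2 fold change had to reach 1 and when the adjusted p had to be at most 0.01, although some members were lost. Letting the transcript with the lowest adjusted p stand for the locus could not change a member count. Each called member had only 1 called transcript per comparison. At a fold change of at least 1 the members higher with light numbered 7 in swap1 and 7 in WT instead of 8, without HSP101. At an adjusted p of at most 0.01 they numbered 7 in WT, and those lower in swap1 in the dark numbered 2 instead of 3. The member lost at an adjusted p of 0.01 was HSP21, in the light effect in WT and in the swap1 effect in red light and in the dark. In swap1 against WT in red light, the member called higher (HSP21) gave 0 at a fold change of at least 1 and 0 at an adjusted p of at most 0.01, and the 2 members called lower became 1 at a fold change of at least 1. At that fold change the other heat shock genes higher with light numbered 21 in swap1 and 17 in WT, and those lower with light 1 in WT. For swap1 against WT the same cut left 0 higher and 2 lower in red light, and 1 higher and 0 lower in the dark. The count of members whose light effect differed was 1 by way of the genotype tables, where HSP21 and HSP17.6A alone had both values, instead of 3. With a required difference of 1 it was 2, without HSP70-4 at -0.51. Each stricter cut admits fewer transcripts by construction. The 19 other values of single member differences under the alternatives run kept their side of the threshold. For members that had not passed, a stricter cut could give no other outcome. The count of member splicing regions was 0, and the cuts tried were all stricter, so none of them could have moved it.

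No paired analysis was possible because the files hold comparisons of whole groups and no value of a single library, so neither a replicate block nor leaving out a library was run. For the same reason no replicate can be shown to carry a call. Among the members, HSFA2 and HSP21 had the lowest levels and the widest errors.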
